A study of Mus musculus with 8 samples.

Results

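The CC chemokine genes described here are Ccl2, Ccl3, Ccl4, Ccl5, Ccl6, Ccl7, Ccl8, Ccl9, Ccl12 and Ccl24, 10 genes of 38026 in the deposited table, matched by symbol. They were measured by bulk RNA-seq in 8 libraries of C57BL/6 mouse cells. The cells were released from tissue with papain, depleted of myelin, captured with magnetic beads against CD11b (an integrin subunit of microglia, macrophages, monocytes and granulocytes) and extracted with Trizol. Tumor-associated microglia and macrophages (TAMs) of medulloblastoma gave 5 libraries, from mice of postnatal days 68, 90, 61, 66 and 62 (TAM libraries 1 to 5). Normal microglia of cerebral cortex gave the other 3, from mice of postnatal day 60 (microglia libraries 1 to 3). The labels do not name the tumor model. The groups differ in the tissue dissected as well as in the tumor, and all TAM mice were older than the microglia mice. The labels do not say that each library is a separate animal either, so the p-values measure only the spread between these libraries. Values are TPM (transcripts per 1000000), which keep no read depth, so no counting interval is given.

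CC chemokines are small secreted proteins that bind G protein-coupled receptors on leukocytes and draw these cells along a gradient. In the brain, microglia, macrophages at the borders and monocytes that enter tissue both make and sense them. The family falls into ligands of CCR2 that draw monocytes (Ccl2, Ccl7, Ccl12), inflammatory chemokines made by activated myeloid cells (Ccl3, Ccl4, Ccl5), the rodent genes Ccl6 and Ccl9, whose products bind CCR1, mouse Ccl8, known as a ligand of CCR8, and the eotaxin Ccl24, a ligand of CCR3.

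Markers of the labelled cells were present in both groups. Itgam, which encodes CD11b, averaged 191 ± 38.5 TPM in TAMs and 636 ± 16.1 TPM in microglia (SD, n = 5 and 3). The summed TPM of 10 resting microglia markers, among them P2ry12 and Tmem119, was 2400 to 7606 in TAMs and 13175 to 16030 in microglia, with the lowest value in TAM library 2. Markers of monocytes and cells derived from them summed to 5399 to 11714 TPM in TAMs and 611 to 1013 in microglia. Of the 10 tested, 7 were higher in TAMs on TPM, beside 8.22% of all tested genes. Most of the monocyte sum was Lyz2, at 5005 to 11603 TPM in TAMs and 574 to 986 TPM in microglia. Ly6c2, Ccr2 and Itga4 were not called on TPM. Markers of other brain cells were higher in the microglia libraries. Those of astrocytes and oligodendrocytes summed to 22.7 to 87.3 TPM in TAMs and 182 to 1226 TPM in microglia. Of them 8 of 9 were lower in TAMs on both scales, beside 25.1% of all tested genes. Those of endothelial and mural cells summed to 15.8 to 80.8 TPM in TAMs and 734 to 2158 TPM in microglia. All 9 were lower in TAMs on both scales, beside the same 25.1%. Their part in the lower levels of the chemokines in TAMs was not tested. In bulk RNA, a change in the number of cells of a type and a change in RNA per cell cannot be told apart. The median log2 fold change over the 15262 genes tested (at least 1 TPM in at least 3 libraries) was -0.65, TAM over microglia. After a median-ratio rescaling, which divides a library by the median over genes of its ratio to the geometric mean of all libraries (rescaled TPM), the median was -0.04, so directions are given on both scales. Between 13.6% and 25.6% of the TPM of a TAM library, and between 3.20% and 15.3% of a microglia library, fell on 3 abundant features (Gm15662, Mir6236, Mir6240).

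Ccl8, Ccl5 and Ccl6 were higher in TAMs, and Ccl24 and Ccl7 were lower, on TPM and on rescaled TPM. Ccl8 was 20.04-fold and Ccl5 18.0-fold higher by the ratio of mean TPM, Ccl6 was 2.12-fold higher, and Ccl24 was 11.5-fold and Ccl7 3.18-fold lower. Ccl2, Ccl3, Ccl4 and Ccl9 passed the test as lower on TPM only, and Ccl12 on neither scale. All 10 members passed the filter on low values, and the test was limma with an intensity trend on log2(TPM + 1), adjusted by Benjamini-Hochberg over all 15262 genes and called at 0.05.

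On TPM 3 members were called higher and 6 lower, with a median log2 fold change of -0.92, beside 8.22% of all tested genes called higher and 56.4% called lower. On rescaled TPM the counts were 3 higher and 2 lower with a median of -0.21, beside 24.6% of genes higher and 25.1% lower. Calls that held on both scales were 3 higher and 2 lower, beside 8.17% and 25.1% of all genes. The lower members, 6 of 10 on TPM, were therefore near the share of all genes, and so were the 2 of 10 on both scales. The 3 higher members stood against a smaller share of all genes on TPM, and near that share on rescaled TPM.

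Every TAM value lay above every microglia value for 3 members and below for 5 on TPM, where 7.97% of all tested genes lay above and 49.7% below. On rescaled TPM 3 members lay above and 2 below, beside 24.1% and 24.6% of genes. The p-values of DESeq2 in the authors' deposited table, after adjustment, called Ccl5, Ccl6 and Ccl8 higher and Ccl7 and Ccl24 lower, the same 5 genes as on both scales, where 29.1% of genes with a p-value were called higher and 20.3% lower.

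**Figure D1:**
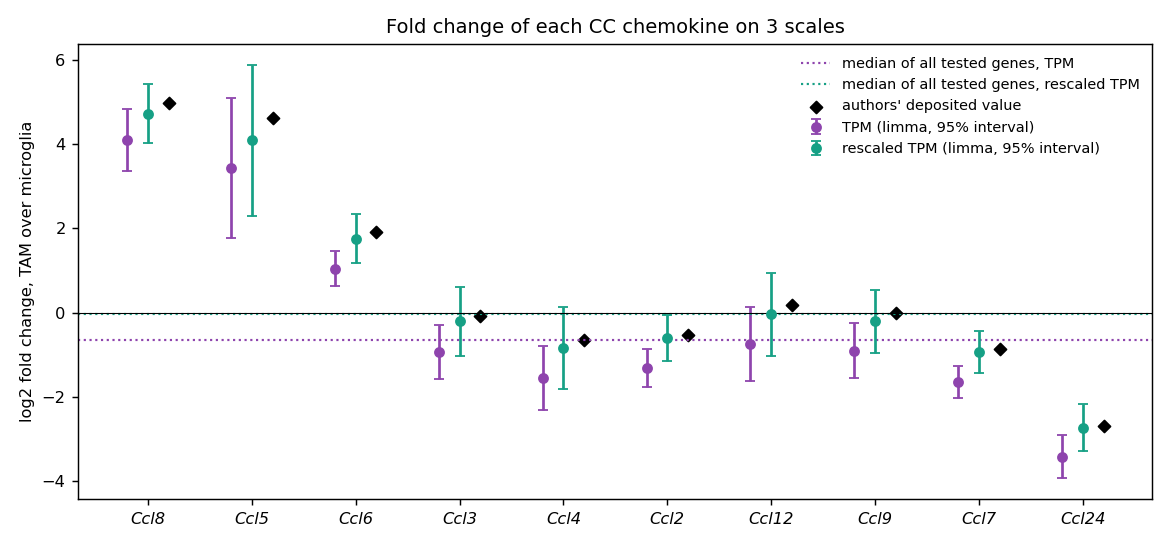
Log2 fold change of each CC chemokine, TAM over microglia (y axis), on TPM and rescaled TPM with 95% limma intervals and as the DESeq2 value of the authors' deposited table (diamonds). Ccl8, Ccl5 and Ccl6 lie above 0 and Ccl7 and Ccl24 below 0 on every scale, and the dotted lines mark the median of all tested genes, -0.65 on TPM and -0.04 on rescaled TPM.

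**Figure D2:**
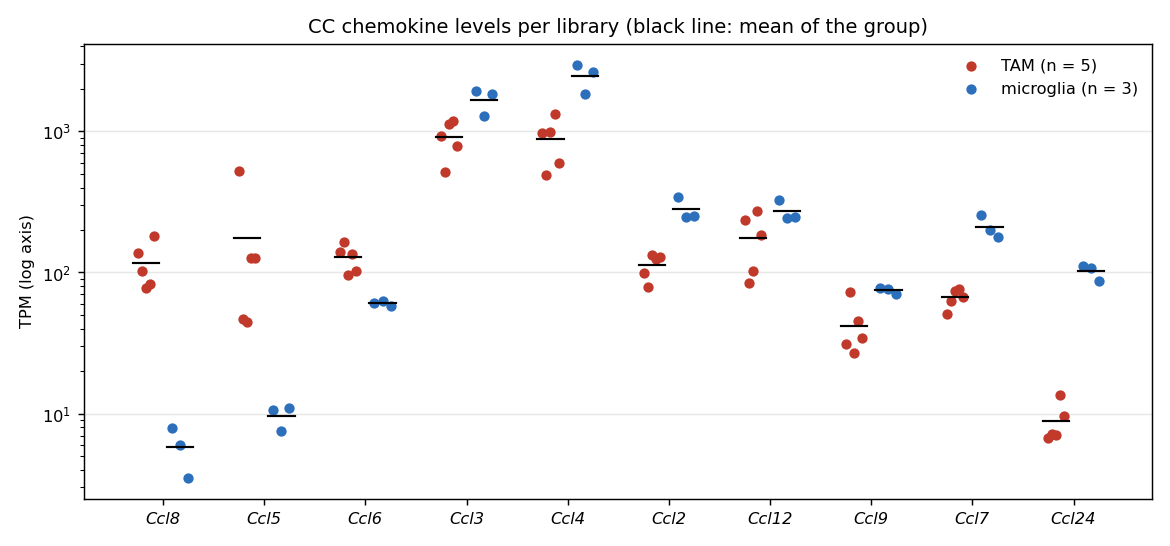
TPM of each CC chemokine (log axis) in the 5 TAM libraries and the 3 microglia libraries, with the group mean as a black line. TAM points lie above all microglia points for Ccl8, Ccl5 and Ccl6, and the highest Ccl5 point is TAM library 1 at 527 TPM.

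Of the 10 genes, 9 lie on mouse chromosome 11 in a pair of blocks and Ccl24 lies on chromosome 5 (chr5:135569937-135573049, minus strand, mm10). The first block runs from Ccl2 (chr11:82035571-82037453) through Ccl7 (chr11:82045712-82047525) and Ccl12 (chr11:82101845-82103400) to Ccl8 (chr11:82115185-82116799), all on the plus strand, within 81.2 kb. The second lies 1409 kb further along and holds Ccl5 (chr11:83525778-83530518), Ccl9 (chr11:83572919-83578636), Ccl6 (chr11:83587882-83593087) and Ccl3 (chr11:83647844-83649355) on the minus strand and Ccl4 (chr11:83662584-83664683) on the plus strand, within 139 kb. Start and end agree for all 10 genes between the deposited table and the GENCODE M21 annotation.

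Neighbouring genes had different calls in both blocks. Ccl8, called higher, starts 11784 bases after the end of Ccl12, which was not called. Ccl6, called higher, is 9245 bases from Ccl9, which was not called on rescaled TPM and was lower on TPM. The 250 bases before the start of these 4 genes are shown because they are the promoters of neighbours with different calls (RefSeq, GRCm38.p6, each on its gene's strand, 5′ to 3′). The windows are chr11:82114935-82115184 for Ccl8, chr11:82101595-82101844 for Ccl12, chr11:83593088-83593337 for Ccl6 and chr11:83578637-83578886 for Ccl9. Capitals mark matches to the motifs listed after them.
Ccl8: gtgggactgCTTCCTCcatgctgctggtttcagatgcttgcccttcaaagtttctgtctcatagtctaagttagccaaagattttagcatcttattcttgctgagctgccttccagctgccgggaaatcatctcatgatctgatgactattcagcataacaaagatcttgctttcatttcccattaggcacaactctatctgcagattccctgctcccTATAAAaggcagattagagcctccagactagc
Ccl12: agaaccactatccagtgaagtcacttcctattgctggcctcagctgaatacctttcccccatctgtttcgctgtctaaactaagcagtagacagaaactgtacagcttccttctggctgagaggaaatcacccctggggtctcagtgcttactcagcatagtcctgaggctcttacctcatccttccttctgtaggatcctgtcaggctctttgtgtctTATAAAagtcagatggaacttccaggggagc
Ccl6: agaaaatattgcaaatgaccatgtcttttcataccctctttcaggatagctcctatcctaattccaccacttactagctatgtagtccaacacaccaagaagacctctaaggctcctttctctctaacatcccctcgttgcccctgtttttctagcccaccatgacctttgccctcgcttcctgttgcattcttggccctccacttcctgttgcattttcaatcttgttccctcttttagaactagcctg
Ccl9: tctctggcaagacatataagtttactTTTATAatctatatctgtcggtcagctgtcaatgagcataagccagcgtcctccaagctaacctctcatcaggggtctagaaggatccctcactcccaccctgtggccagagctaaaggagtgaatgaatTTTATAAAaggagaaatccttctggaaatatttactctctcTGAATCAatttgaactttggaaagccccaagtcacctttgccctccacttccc

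Motifs searched on both strands included TATAAA (the TATA box), GAGGAAG (PU.1), TGANTCA (AP-1), GGGANNNNCC (kappa-B), GAAANNGAAA (a core of the interferon-stimulated response element), TTCNNNNGAA (STAT6) and TTGCNNAA (C/EBP). Ccl8 and Ccl12 both held TATAAA, at 32 to 27 and 31 to 26 bases before the start. Ccl8 also held the PU.1 motif on its minus strand at 241 to 235 bases, printed as its complement CTTCCTC. Ccl9 held the AP-1 motif at 53 to 47 bases and TATAAA in matches at 92 to 87, 94 to 89 and 224 to 219 bases, of which the first overlaps the other strand's match at 94 to 89. Ccl6, and likewise Ccl3, held none of these motifs in its window. Of 32851 promoters of the same length, 12.4% held TATAAA, 10.6% the PU.1 motif, 6.75% the AP-1 motif, 17.6% the kappa-B motif, 2.98% GAAANNGAAA, 5.85% TTCNNNNGAA and 9.56% the C/EBP motif. These matches are letters in a window and describe no binding. RefSeq windows were matched for 5 of the 10 members (Ccl3, Ccl6, Ccl8, Ccl9 and Ccl12).

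Ccl8 had the largest rise among the members. It stood at 138, 102, 77.2, 83.6 and 180.0 TPM in TAM libraries 1 to 5, against 7.89, 6.04 and 3.49 TPM in microglia libraries 1 to 3. The lowest TAM library was far above the highest microglia library. The mean was 116 ± 42.9 TPM in TAMs and 5.80 ± 2.21 TPM in microglia (SD, n = 5 and 3), and the log2 fold change was 4.09 ± 0.32 (SE) with a limma adjusted p of 5.68e-05. On rescaled TPM it was 4.72 (limma adjusted p 4.64e-05). By mean TPM, Ccl8 ranked 886 of the 15262 tested genes in TAMs and 11030 in microglia. Ccr8, the receptor known for mouse CCL8, was listed at 0 to 0.03 TPM in TAMs and 0 to 0.04 TPM in microglia.

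Ccl5, which encodes RANTES, a ligand of CCR1 and CCR3 made by T cells, NK cells and activated macrophages, was the most uneven member. It stood at 527, 46.8, 44.9, 127 and 126 TPM in TAM libraries 1 to 5, against 10.7, 7.51 and 10.9 TPM in microglia libraries 1 to 3. All TAM values lay above all microglia values, but TAM library 1 lay far above the other TAM libraries. The coefficient of variation in TAMs was 116%, against 15.4% for Ccl7, the steadiest member there. TAMs exceeded microglia by a log2 fold change of 3.42 ± 0.73 (SE, limma adjusted p 0.00399), and by 4.09 on rescaled TPM (limma adjusted p 0.00344). Without TAM library 1 it was 2.87 (limma adjusted p 0.00155), and 3.50 on rescaled TPM.

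Markers of other cells and of interferon moved as follows beside Ccl5. Of 11 T and NK cell markers, 6 passed the filter. Of these, 1 was higher and 2 lower in TAMs on TPM, beside 8.22% and 56.4% of all tested genes. The list summed to 28.5 to 109 TPM in TAMs and 15.1 to 22.5 TPM in microglia, and to 36.5 TPM in TAM library 1. Most of it was Cd4 at 24.2 to 104 TPM in TAMs, a gene that macrophages also express. Among the TAM libraries, library 1 held the highest value of the T cell genes Cd3e, Cd8a, Cd8b1 and Trbc2, at 0.170, 0.327, 0.175 and 0.430 TPM. It was also highest for the cytotoxic cell gene Gzma, at 2.84 TPM against 0 to 1.70 TPM in the other TAM libraries. Nkg7, of the same kind, was highest there too, at 0.983 TPM against 0.280 to 0.711 TPM. Of these genes only Gzma passed the filter. Cd3d was lower in library 1 than in any other TAM library, at 0.340 TPM. Cd3g, Cd4, Klrb1c and Lck were not highest there. The 10 interferon response genes, such as Isg15 and Ifit3, summed to 1695, 530, 614, 744 and 1115 TPM in TAM libraries 1 to 5, against 175 to 183 TPM in microglia. TAM library 1 was highest for this sum as well. Of these 10 genes 4 were called higher on TPM and 7 on rescaled TPM, with none lower on either. Of all tested genes 8.22% and 24.6% were called higher on those scales. The part of the interferon genes or of any cell type in the Ccl5 level was not tested.

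Ccl6 and Ccl9 are neighbouring genes whose products bind CCR1 and draw monocytes, macrophages and related myeloid cells in mice. Ccl6 stood at 140.3, 165, 95.5, 136 and 102 TPM in TAM libraries 1 to 5, against 60.6, 62.4 and 58.2 TPM in microglia libraries 1 to 3. Its groups did not overlap, and the mean was 128 ± 28.8 TPM in TAMs and 60.4 ± 2.12 TPM in microglia (SD, n = 5 and 3). The difference was 1.04 ± 0.18 on the log2 scale (SE, limma adjusted p 0.00155), and 1.75 on rescaled TPM (limma adjusted p 0.00101).

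Ccl9 stood at 31.0, 72.4, 27.1, 45.0 and 34.2 TPM in TAM libraries 1 to 5, against 77.0, 77.0 and 70.5 TPM in microglia libraries 1 to 3. TAM library 2 lay within the microglia range and the other 4 TAM libraries lay below it. The log2 fold change of Ccl9 on TPM was -0.91 ± 0.29 (SE, limma adjusted p 0.0218). On rescaled TPM it was -0.20, with a 95% interval of -0.95 to 0.55 (limma adjusted p 0.628). The call on TPM was lost without any of the 3 microglia libraries, with limma adjusted p of 0.0547 to 0.0700.

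TAM library 2 held the highest TAM value of both Ccl6 and Ccl9. It also had the highest sum of neutrophil markers, which was 543 TPM there, 73.9 to 195 TPM in the other TAM libraries and 17.4 to 33.5 TPM in microglia. Most of it was S100a8, S100a9 and Retnlg, at 147, 245 and 132 TPM. Mmp8 and Cxcr2 were highest there too, while Camp, Ngp and Ltf were highest in TAM library 1 and Ly6g in TAM library 4. Of 9 neutrophil markers, 6 passed the filter and 4 of these were higher in TAMs on both scales, beside 8.17% of all tested genes. Ly6g was at or near 0 in all libraries (0 to 0.79 TPM in TAMs, and 0 in microglia). TAM library 2 also had the highest TAM sum of markers of macrophages at the borders, at 2361 TPM against 993 to 1641 TPM. Its sum of resting microglia markers was the lowest, at 2400 TPM. The part of any cell type in Ccl6 and Ccl9 was not tested. The mouse of TAM library 2 was also the oldest, at 90 days.

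The inflammatory chemokines Ccl3 and Ccl4, which encode MIP-1 alpha and MIP-1 beta and lie 13228 bases apart, were the most abundant members in both groups. Ccl3, a ligand of CCR1, stood at 932, 516, 1120.3, 1175 and 783 TPM in TAM libraries 1 to 5, against 1919.8, 1288 and 1833 TPM in microglia libraries 1 to 3. Ccl4, which draws monocytes and T cells, stood at 978, 494, 989, 1336 and 597 TPM in TAM libraries 1 to 5, against 2966, 1844 and 2641 TPM in microglia libraries 1 to 3. All TAM values of both genes lay below all microglia values, by a narrow margin for Ccl3.

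For Ccl3 the mean was 905 ± 267 TPM in TAMs and 1680.2 ± 343 TPM in microglia (SD, n = 5 and 3), and the log2 fold change was -0.93 ± 0.28 (SE, limma adjusted p 0.0181). On rescaled TPM it was -0.21, with a 95% interval of -1.02 to 0.61 (limma adjusted p 0.647). The Ccl3 call on TPM was lost without microglia library 1 or 3 (limma adjusted p 0.0604 and 0.0678). For Ccl4 the mean was 879 ± 339 TPM in TAMs and 2484 ± 577 TPM in microglia, and the log2 fold change was -1.56 ± 0.33 (SE, limma adjusted p 0.00397). On rescaled TPM it was -0.84, with a 95% interval of -1.82 to 0.14 (limma adjusted p 0.135). Among all tested genes, Ccl4 ranked 126 in TAMs and 35 in microglia by mean TPM, and Ccl3 ranked 118 in TAMs and 60 in microglia.

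The ratio of Ccl4 to Ccl3 within a library does not depend on the scale. It was 1.05, 0.957, 0.883, 1.14 and 0.762 in TAM libraries 1 to 5, against 1.55, 1.43 and 1.44 in microglia libraries 1 to 3. No TAM library reached the microglia range, so Ccl4 was lower in TAMs relative to Ccl3 in each of them.

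Both genes are known to rise in microglia during enzymatic dissociation, together with immediate early genes. The 14 immediate early genes, such as Fos, Jun and Egr1, summed to 2504 to 3493 TPM in TAMs and 9310 to 10436 TPM in microglia. All 14 were lower in TAMs on TPM and 9 on rescaled TPM, beside 56.4% and 25.1% of all tested genes. The part of dissociation in the Ccl3 and Ccl4 levels was not tested.

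Ccl2 (MCP-1), Ccl7 (MCP-3) and Ccl12 (MCP-5) encode ligands of CCR2, the receptor by which monocytes leave bone marrow and enter tissue. Ccl7 stood at 51.2, 62.7, 74.3, 77.0 and 67.5 TPM in TAM libraries 1 to 5, against 255, 201 and 178 TPM in microglia libraries 1 to 3. Its groups lay far apart, with means of 66.5 ± 10.2 TPM in TAMs and 211 ± 39.4 TPM in microglia (SD, n = 5 and 3). Ccl7 had a log2 fold change of -1.65 ± 0.16 (SE, limma adjusted p 0.000148), and -0.94 on rescaled TPM (limma adjusted p 0.00843).

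Ccl2 stood at 99.99, 78.5, 132, 124 and 128 TPM in TAM libraries 1 to 5, against 344, 246 and 253 TPM in microglia libraries 1 to 3. The TAM values all lay below the microglia values. The log2 fold change was -1.32 ± 0.20 (SE, limma adjusted p 0.000804). On rescaled TPM it was -0.60, with a 95% interval of -1.16 to -0.05 before adjustment, and it did not pass (limma adjusted p 0.0672).

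Ccl12 stood at 235, 84.6, 102, 271 and 186 TPM in TAM libraries 1 to 5, against 325, 243 and 247 TPM in microglia libraries 1 to 3. TAM library 4 lay within the microglia range and the other 4 TAM libraries below it. The log2 fold change was -0.75 ± 0.38 (SE), with a 95% interval of -1.63 to 0.12, and did not pass (limma adjusted p 0.113). On rescaled TPM it was -0.04, with a 95% interval of -1.02 to 0.95 (limma adjusted p 0.947).

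The genes of this block did not keep their proportions. The ratio of Ccl12 to Ccl2 was 0.773 to 2.35 in TAMs and 0.944 to 0.988 in microglia, so it was spread widely among TAMs around a narrow microglia range. The ratio of Ccl7 to Ccl2 was 0.512 to 0.799 in TAMs and 0.705 to 0.817 in microglia, and the groups overlapped. The ratio of Ccl8 to Ccl2 was 0.585 to 1.40 in TAMs and 0.0138 to 0.0245 in microglia. The ratio of Ccl8 to Ccl12 was 0.309 to 1.21 in TAMs and 0.0141 to 0.0249 in microglia, with a wide gap between the groups in both cases. In the other block, the ratio of Ccl6 to Ccl9 was 2.28 to 4.52 in TAMs and 0.787 to 0.825 in microglia, again without overlap.

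**Figure D3:**
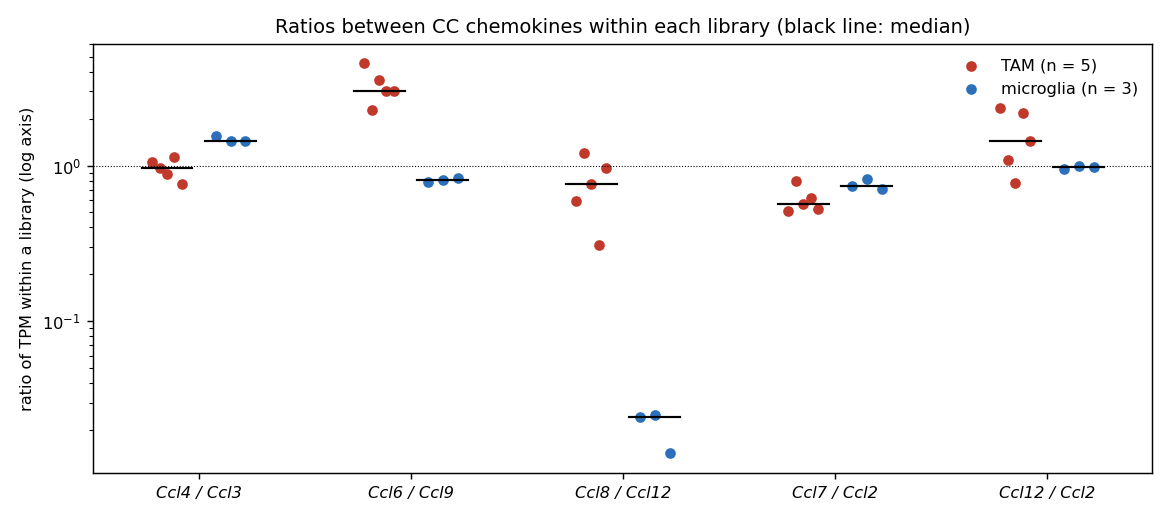
Ratio of the TPM of a pair of CC chemokines within each library (log axis), with the group median as a black line and a dotted line at a ratio of 1. The ratios Ccl4 to Ccl3, Ccl6 to Ccl9 and Ccl8 to Ccl12 do not overlap between TAMs and microglia, while Ccl7 to Ccl2 and Ccl12 to Ccl2 do.

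Ccl24 encodes eotaxin-2, a ligand of CCR3 that draws eosinophils and is made by alternatively activated macrophages. It stood at 6.76, 7.17, 7.09, 13.6 and 9.66 TPM in TAM libraries 1 to 5, against 112, 108 and 86.8 TPM in microglia libraries 1 to 3. The groups lay far apart, with means of 8.85 ± 2.87 TPM in TAMs and 102 ± 13.3 TPM in microglia (SD, n = 5 and 3). Its log2 fold change was -3.42 ± 0.22 (SE, limma adjusted p 2.82e-05), and -2.73 on rescaled TPM (limma adjusted p 0.000123). Ccl24 ranked 7634 of the tested genes in TAMs and 1355 in microglia.

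Markers of border-associated macrophages, the macrophages of meninges and vessels, are given beside Ccl24 because that cell type is another source in a CD11b capture. Of 11 such markers 2 were higher (Ms4a7 and Folr2) and 6 lower in TAMs on TPM. Of these 6, 4 (Cd163, Lyve1, Cd209f and Clec10a) were also lower on rescaled TPM. Of all tested genes 8.22% were higher and 56.4% lower on TPM, so the 6 lower markers were near that share. On both scales 25.1% of genes were lower. Lyve1 averaged 14.3 ± 8.95 TPM in TAMs and 90.7 ± 13.3 TPM in microglia, and the list summed to 993 to 2361 TPM in TAMs and 1581 to 2107 TPM in microglia. The part of border macrophages in the Ccl24 level was not tested.

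The 10 members summed to 3140, 1630, 2669, 3387 and 2214 TPM in TAM libraries 1 to 5, against 6078, 4082 and 5381 TPM in microglia libraries 1 to 3. All TAM sums lay below all microglia sums on TPM. On rescaled TPM the sums overlapped, at 2021 to 4278 in TAMs and 2625 to 5185 in microglia. As a share of the deposited values, the members took 0.163% to 0.340% of a TAM library's TPM and 0.412% to 0.611% of a microglia library's. The make-up of the sum differed as well. Ccl3 and Ccl4 together held 60.8% to 79.0% of it in TAMs and 76.7% to 83.1% in microglia, which overlap. Of the remainder, Ccl5 and Ccl8 held 21.8% to 54.1% in TAMs and 1.43% to 1.59% in microglia, without overlap. Ccl4 alone held 27.0% to 39.4% in TAMs and 45.2% to 49.1% in microglia, and Ccl24 held 0.215% to 0.440% in TAMs and 1.61% to 2.64% in microglia.

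**Figure D4:**
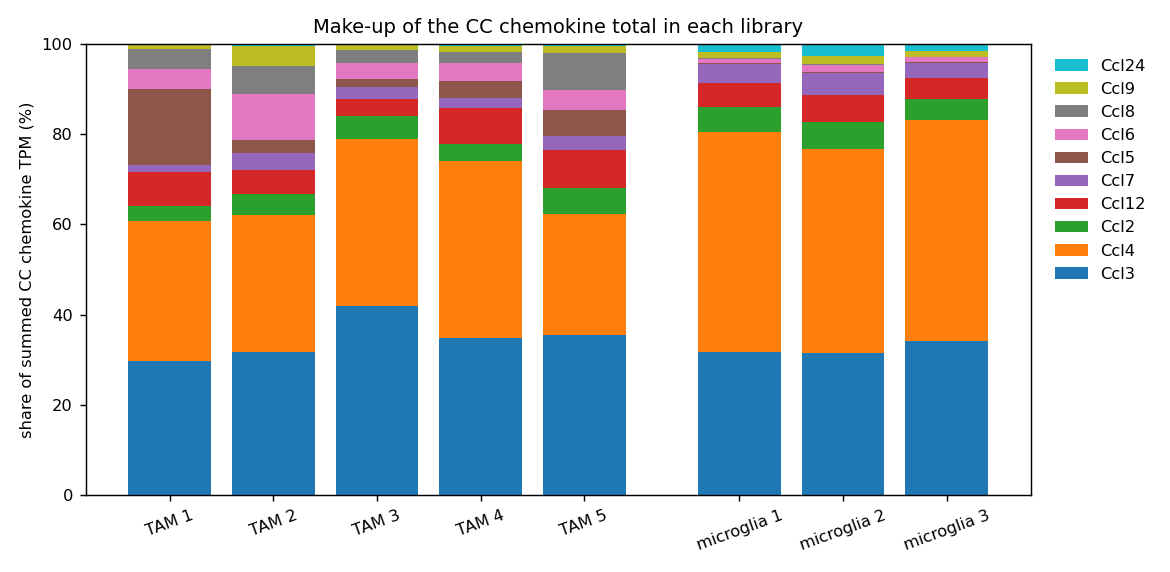
Share of the summed TPM of the 10 CC chemokines held by each gene (y axis, percent) in each TAM and microglia library. Ccl3 and Ccl4 are the largest parts everywhere, and Ccl5 holds 16.8% in TAM library 1, 1.68% to 5.69% in the other TAM libraries and 0.175% to 0.203% in microglia.

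Ordered by mean TPM, the TAM levels ran Ccl3, Ccl4, Ccl12, Ccl5, Ccl6, Ccl8, Ccl2, Ccl7, Ccl9 and Ccl24. Neighbours in that order overlapped in range except at Ccl4 and Ccl12, Ccl2 and Ccl7, and Ccl9 and Ccl24. In microglia the order ran Ccl4, Ccl3, Ccl2, Ccl12, Ccl7, Ccl24, Ccl9, Ccl6, Ccl5 and Ccl8. There neighbours overlapped only at Ccl4 and Ccl3, Ccl2 and Ccl12, Ccl12 and Ccl7, and Ccl5 and Ccl8. Ccl8 and Ccl5 were thus the lowest members in microglia, and in TAMs each overlapped the ranges of Ccl6 and Ccl2.

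The transcripts differ in a feature that the choice of members did not use, the AU-rich pentamer ATTTA in the 3′ UTR, known from short-lived cytokine mRNAs. Ccl12 held 5 in 167 bases, Ccl3 held 5 in 409, Ccl4 held 2 in 302, Ccl7 held 2 in 435 and Ccl2 held 1 in 275 (GENCODE M21). Ccl6 held 4 in 943 bases and Ccl9 held 5 in 2465. Ccl5, Ccl8 and Ccl24 held 0, in 199, 165 and 858 bases. Of 20969 genes with a 3′ UTR, 64.7% held at least 1, with a median of 1.22 per kb. Genes without the pentamer were found among both the higher members (Ccl5, Ccl8) and the lower ones (Ccl24).

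For each member, the genes whose profile over the 8 libraries was nearest were taken by the root mean square distance of centred log2(TPM + 1). The nearest to Ccl2 were Tnfaip3 (distance 0.12), an inhibitor of NF-kappa-B signaling, and Rnase4 (0.15). Those to Ccl4 were Tnf (0.22), a cytokine, and Pdgfb (0.23), those to Ccl3 Hk2 (0.17) and Itgb5 (0.18), and those to Ccl7 Hnmt (0.11) and Gm8822 (0.15). Zbp1 (0.41), a sensor of nucleic acids induced by interferon, and Ms4a4c (0.42), a monocyte gene, were nearest to Ccl5. Itgal (0.34), an integrin of leukocytes, and Cd22 (0.38) were nearest to Ccl8, while Fut7 (0.12) and Rac2 (0.14) were nearest to Ccl6. Dusp2 (0.15) and Qprt (0.17) lay nearest to Ccl9, Comp (0.17) and Siglecf (0.23) to Ccl12, and 6030468B19Rik (0.23) and Rapgef5 (0.24) to Ccl24. Some of these genes were low. Fut7, Gm8822 and 6030468B19Rik averaged 1.88, 0.949 and 0.351 TPM in TAMs and 0.372, 4.98 and 11.0 TPM in microglia. Adding 1 to TPM shrinks the changes of such genes, so their nearness holds on that scale only. Among the members themselves, Ccl2 lay 0.25 from Ccl7, 0.31 from Ccl3 and 0.38 from Ccl4, and Ccl5 lay 0.98 from Ccl8, further than from genes outside the family.

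Of 11 other CC chemokine genes, 5 passed the filter on low values (Ccl26 through the microglia libraries only). Of these, 2 were higher and 2 lower in TAMs on both scales, beside 8.17% and 25.1% of all tested genes. Ccl17 and Ccl22, ligands of CCR4 made by dendritic cells and macrophages, were higher. Ccl17 averaged 10.8 ± 8.01 TPM in TAMs and 2.32 ± 0.90 TPM in microglia, with a log2 fold change of 1.65 ± 0.45 (SE, limma adjusted p 0.0123). Ccl22 averaged 8.14 ± 4.50 TPM in TAMs and 3.06 ± 0.76 TPM in microglia, with 1.08 ± 0.34 (limma adjusted p 0.0225), and its call was lost without microglia library 2 or 3 (limma adjusted p 0.0896 and 0.0581). TAM library 4 held the highest value of both, at 24.8 TPM for Ccl17 and 15.98 TPM for Ccl22.

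Ccl26 and Ccl27a were lower. Ccl26 was listed at 0 in 4 TAM libraries and at 0.445 TPM in TAM library 4, against 1.62, 3.86 and 2.05 TPM in microglia (log2 fold change -1.65, limma adjusted p 0.000800). Ccl26 was tested only because all microglia libraries reached 1 TPM, so the filter itself favored a lower call. Without any of those libraries it was not tested. Ccl27a averaged 3.27 ± 0.83 TPM in TAMs and 13.7 ± 7.94 TPM in microglia (-1.62 ± 0.39, limma adjusted p 0.00702), and overlaps Il11ra1 by 8 bases on the opposite strand. On rescaled TPM Ccl27a was at -0.999 (limma adjusted p 0.0325), and that call was lost without any one of TAM library 3, 4 or 5 or microglia library 2 or 3 (limma adjusted p 0.0531 to 0.118). Ccl25 did not pass, with -0.24 on TPM and 0.26 on rescaled TPM (limma adjusted p 0.481 and 0.401).

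The receptors were measured in the same cells, and 6 of 10 CC receptor genes passed the filter. Ccr6, the receptor of CCL20, stood at 14.0, 0.271, 0.218, 0.551 and 0.240 TPM in TAM libraries 1 to 5, against 111, 163 and 137 TPM in microglia libraries 1 to 3. TAM library 1 lay far above the other TAM libraries and below all microglia libraries. The log2 fold change was -6.00 ± 0.80 (SE, limma adjusted p 0.000501), and -5.41 on rescaled TPM. Ccl20 was listed at 0 in all TAM libraries and at 0 to 0.03 TPM in microglia.

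Ccr2, the receptor of Ccl2, Ccl7 and Ccl12, stood at 16.1, 48.3, 15.8, 16.96 and 2.62 TPM in TAM libraries 1 to 5, against 5.54, 6.25 and 5.53 TPM in microglia libraries 1 to 3. TAM libraries 1 to 4 lay above the microglia range and TAM library 5 below it. The log2 fold change of 1.21 ± 0.68 (SE) did not pass (limma adjusted p 0.149), nor did 1.84 on rescaled TPM (limma adjusted p 0.0801). Without TAM library 5 Ccr2 was called higher, at 1.73 on TPM and 2.44 on rescaled TPM (limma adjusted p 0.00556 and 0.00211), and in the authors' deposited table it was 2.50 with an adjusted DESeq2 p of 0.000592.

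Ccr1, a receptor of Ccl3, Ccl5, Ccl6, Ccl7 and Ccl9, averaged 23.3 ± 11.7 TPM in TAMs and 34.6 ± 1.30 TPM in microglia. Its log2 fold change of -0.68 ± 0.37 (SE) did not pass (limma adjusted p 0.129) and was 0.01 on rescaled TPM. Without TAM library 2, which held 42.0 TPM, Ccr1 was called lower on TPM at -0.92 (limma adjusted p 0.0209). Ccr3, the receptor of Ccl24, stood at 0.171 to 3.30 TPM in TAMs and 1.65 to 2.25 TPM in microglia and did not pass (-0.72 ± 0.41, limma adjusted p 0.147). Without TAM library 2, which held the 3.30 TPM, Ccr3 was called lower at -1.05 on TPM and -0.70 on rescaled TPM (limma adjusted p 0.00299 and 0.0165). With age as a covariate Ccr1 was called lower on TPM (-1.04, limma adjusted p 0.0362). Ccr3 was called lower on TPM (-1.27) and rescaled TPM (-0.94), with limma adjusted p of 0.00550 and 0.0189. The microglia mice were all of the same age, so the age slope rests on TAMs, and mostly on TAM library 2, the oldest. The age fit is therefore not a check apart from leaving out that library. Ccr7 did not pass (0.97 ± 0.49, limma adjusted p 0.109), and was called higher without TAM library 5 at 1.34 (limma adjusted p 0.00406).

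Of 5 atypical receptor genes 2 passed the filter and both were lower in TAMs on both scales, beside 25.1% of all tested genes. The Ccrl2 call on rescaled TPM was lost with age as a covariate (-0.69, limma adjusted p 0.0592). Ccrl2, known to present chemerin, averaged 268 ± 76.7 TPM in TAMs and 745 ± 129 TPM in microglia (-1.50 ± 0.22, limma adjusted p 0.000688). Ackr3, a scavenger of CXCL12, averaged 3.14 ± 1.90 TPM in TAMs and 29.3 ± 13.8 TPM in microglia (-2.90 ± 0.49, limma adjusted p 0.00145). Endothelial and mural cells are known to express Ackr3, and their markers were lower in TAMs, as given above. The part of those cells in Ackr3 was not tested.

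**Figure D5:**
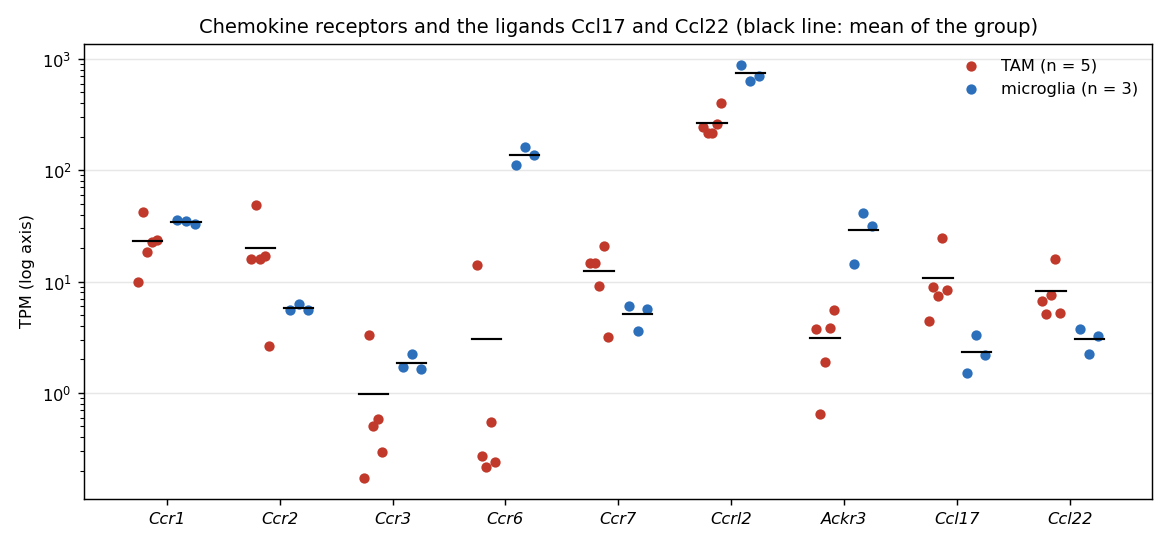
TPM (log axis) of CC receptors, the atypical receptors Ccrl2 and Ackr3 and the ligands Ccl17 and Ccl22 in the 5 TAM and 3 microglia libraries, with the group mean as a black line. All TAM points of Ccr6, Ccrl2 and Ackr3 lie below the microglia points, and Ccr2 has 4 TAM points above and 1 below.

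Of 21 genes of chemokine receptor signaling 2 were higher and 14 lower in TAMs on TPM, with a median log2 fold change of -0.72. On rescaled TPM 5 were higher and 4 lower. Of all tested genes 8.22% were higher and 56.4% lower on TPM (median -0.65), and 24.6% and 25.1% on rescaled TPM. The signaling list was near these shares. The 4 of lowest p were Elmo1, which acts in the activation of Rac (-2.01), the kinase subunit Pik3cg (-1.33), the phospholipase Plcb3 (-1.41) and the exchange factor Vav1 (-0.73, and -0.02 on rescaled TPM). Of 9 proteases tested that can cleave chemokines, 3 were higher and 2 lower on TPM, and 4 were higher and none lower on rescaled TPM. Mmp14, a membrane-bound metalloproteinase, averaged 101 ± 41.2 TPM in TAMs and 13.7 ± 2.95 TPM in microglia (2.72 ± 0.31, limma adjusted p 0.000262). The other 3 of lowest p were Ctsl (1.05) and Mmp2 (1.07), both higher, and Adam10, at -0.52 on TPM and 0.19 on rescaled TPM.

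Regulators of chemokine transcription and mRNA decay were mostly lower on TPM, where 56.4% of all tested genes were lower. On rescaled TPM 25.1% of all tested genes were lower and 24.6% higher. Of 23 transcription regulators 20 were lower and none higher on TPM (median -0.99), and 8 were lower and 2 higher on rescaled TPM. The 4 of lowest p were Nfkbia, the NF-kappa-B inhibitor that NF-kappa-B itself induces (-2.60), Nfkbiz (-2.06), Rela (-1.20) and Jun (-2.07), all lower on rescaled TPM too. All 7 mRNA decay factors were lower on TPM (median -1.05) and 3 on rescaled TPM. Zfp36, which encodes tristetraprolin, a protein that binds AU-rich elements, averaged 665 ± 107 TPM in TAMs and 2850 ± 119 TPM in microglia (-2.11 ± 0.15, limma adjusted p 3.85e-05). Zfp36l2 (-1.43), Zfp36l1 (-1.64) and Zc3h12a (-1.05) were the next by p.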

How the data were processed

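The 8 libraries were grouped by their titles. The authors deposited 1 table of 38026 genes that gives, per the file headers, TPM in each library and 3 results of their DESeq2 run: a mean signal, a log2 fold change and a raw p-value. The authors used mm10, FastQC and DESeq2, per the submitters' processing notes, which give no versions. Aligner, quantifier, annotation release and strandedness were not given in the sources used here. Depth per library is unknown.

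The test was limma 3.58.1 (R 4.3.3, intensity trend) on log2(TPM + 1) for the 15262 genes that reached 1 TPM in 3 or more libraries, all 8 libraries in 1 fit without covariates, with Benjamini-Hochberg adjustment over all of them. Fold changes are on that log2 scale, which understates the change of low genes. The same fit was run on TPM divided by each library's median ratio to the geometric mean library. The deposited p-values were adjusted over 15195 tested genes that had one. The fit was tested on simulated data.

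The members and gene lists were chosen with earlier results of these data known. Named genes were all members, other CC chemokines past the filter, called CC or atypical receptors with Ccr1, Ccr2 and Ccr3, for each pathway list the called genes of lowest p (at most 4), and the 2 nearest genes per member. Marker genes, Itgam, Ccr7, Ccr8 and Ccl20 were named in addition. Some results that this rule takes are not reported here.

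Transcripts were compared with blastn 2.17.0: no member's transcript matched another gene over at least 80% of its length with at least 95% identity. Ccl2 lies within Gm17268 (0 TPM in every library) and Ccl6 within E230016K23Rik (0.418 to 1.42 TPM), both on the opposite strand, whose reads could not be told apart without strand. Sequences were read with Python 3.11.15 and pandas 2.3.3. Alternatives were rescaling, omission of the 3 abundant features Mir6236, Mir6240 and Gm15662, the filter, the pseudocount, age, a replicate block and each library left out.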

Additional observations from a re-analysis of the deposited data

Results flagged for a closer look

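In the TAM group, 1 library lay apart from the other 4 by Dixon's ratio (critical value 0.71) for 7 of the 23 genes examined (members, other CC chemokines and receptors). Chance flags about 1 in 20 groups of normally distributed values. The ratio was taken on untransformed TPM, where all 7 flags were high values, and the genes share libraries. That rate therefore need not hold here. No cause was tested for any of them.

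Ccl5 stood at 527 TPM in TAM library 1, against 44.9 to 127 TPM in the other TAM libraries, with a ratio of 0.831. Ccr6 stood at 14.0 TPM in the same library, against 0.218 to 0.551 TPM in the others. TAM library 4 held 24.8 TPM of Ccl17, against 4.42 to 9.02 TPM in the other TAM libraries, and 15.98 TPM of Ccl22, against 5.15 to 7.64 TPM. Ccl26 was listed at 0.445 TPM in TAM library 4 and at 0 in the other 4. Ccr3 stood at 3.30 TPM in TAM library 2, against 0.171 to 0.578 TPM in the others. Ccrl2 stood at 400.4 TPM in TAM library 5, against 214 to 262 TPM in the others.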

How the results depend on the processing

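Rescaling changed the counts most. On rescaled TPM 3755 genes were called higher and 3837 lower, against 1254 and 8610 on TPM, and 2 members lower, against 6. Leaving out each library in turn gave 5581 to 9243 lower genes on TPM, and 2485 to 3943 higher and 2144 to 4068 lower genes on rescaled TPM; the lowest counts came without microglia library 2 or 3. Members called higher numbered 3 in every setting. Ccl5, Ccl6, Ccl8 and Ccl24 kept direction and call on both scales in all settings run, and Ccl2, Ccl4 and Ccl7 did so on TPM. Ccl3 was lost on TPM with age as covariate (-0.61, adjusted p 0.0505) and without 3 abundant features (-0.74, 0.0591), and so was Ccl9 without those features (-0.72, 0.0709). On rescaled TPM Ccl9 was called lower with age as covariate (-0.64, 0.0334) and Ccl2 without microglia library 2 (-0.83, 0.0446). On the same scale Ccl22 was lost without microglia library 2 (1.37, 0.0512) and Ccl27a without the filter (-0.999, 0.0552).

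Uncalled values near 0 changed sign. Those were Ccl25 (0.26) and Ccr1 (0.0066) on rescaled TPM, and on that scale with age as covariate Ccl3 (0.067), Ccl12 (0.23) and Ccr1 (-0.39). Leaving out 1 library, Ccl12 ranged from -0.25 to 0.18 and Ccr1 from -0.24 to 0.23. The cause was not tested.

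Same-numbered libraries of the groups deviated together with r of 0.15, 0.01 and -0.05 in the 3 pairs, and other pairs with r of -0.12 to 0.08. Same-numbered libraries are known to share only a number, and a shared batch was not tested. A replicate block takes the group difference from the 3 same-numbered pairs only. TAM libraries without a microglia library of the same number do not enter that difference. With this block 1103 genes were higher and 8613 lower on TPM. Ccl9 was not called (-0.91, adjusted p 0.0561) and Ccl12 was (-1.08, 0.0205), and on rescaled TPM Ccl4 was called (-0.83, 0.0345) and Ccl7 was not (-0.94, 0.0590). The block also called Ccr2 higher (1.84, 0.0145, and 2.55, 0.0153 on rescaled TPM) and Ccr7 higher (1.18, 0.0233, and 1.86, 0.0151). TAM library 5 has no microglia library of its number, so it does not enter these values. The Ccr2 and Ccr7 calls under the block are therefore not a check apart from leaving out that library. Ccl27a was lost on rescaled TPM with the block (-0.84, 0.108).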
